A study of Rattus norvegicus with 18 samples.

Results

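Of the 187393 ATAC-seq peaks listed on rat chromosomes 1 to 20, 90721 carried the number 1 in the fourth column of the peak list and were shorter than 4000 bp. These peaks, called members below, were chosen by those measured values, with no reference to where they lie, and 192830 peaks were listed on all sequences. The libraries came from primary neuron cultures of embryonic day 18 Sprague-Dawley rat cortex, hippocampus and striatum, kept for 11 days in vitro and then given neurobasal medium as vehicle or KCl for 1 h. Each of the 3 culture systems had 3 vehicle and 3 KCl libraries, 18 in all, from 50000 nuclei each. The sample labels gave 25 mM KCl, whereas the design text of the series and the published ATAC-seq methods gave 10 mM. The authors pooled both treatments and all replicates of a culture system before they called peaks. No value per library was listed, so neither a KCl effect nor a spread between replicates could be computed, and the depth of the libraries was unknown.

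ATAC-seq uses a transposase that inserts adapters where DNA is not wrapped tightly in nucleosomes, so that a peak marks open chromatin. In neurons open sites lie at promoters, which are often open in many cell types, and at enhancers, which are distal elements that raise transcription of genes and are often open in some cell types only. A peak list gives the place of such sites and not their function.

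The fourth column held whole numbers that no source used here describes. They were read as the number of culture-system peaks that were merged into a listed peak, so that a member would be a peak called in 1 culture system and not overlapped by a peak of another. The list does not say which culture system that was. A site open in all 3 but above the calling threshold in 1 pool, and a site open in 1 culture system only, cannot be told apart in it. Members were set beside 60571 peaks with the number 2 and 36099 with a number of 3 or more on the same chromosomes. The number selected all of these groups, so the differences below are descriptions without a test. Intervals are 95% intervals over peaks that treat peaks as independent and do not cover variation between animals or cultures.

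Members made up 48.4% of the peaks (Wilson interval 48.2 to 48.6%) but 29.2% of the base pairs under peaks. Their median length was 430 bp (interval 427 to 432 bp), with quartiles of 275 and 653 bp, against a median of 829 bp for peaks of number 2 and 1325 bp for peaks of 3 or more. A merged peak covers every peak that entered it, so length and number are tied by construction. Short peaks were nearly all members. The shortest listed peaks measured 146 bp, the length below which the authors had removed peaks. Among peaks from 146 bp up to 200 bp, 99.8% were members, against 43.6% from 500 up to 1000 bp and 3.62% from 2000 up to 4000 bp. The number of members rose in a step near 200 bp, from 1139 with lengths of 180 to 189 bp to 2439 with lengths of 200 to 209 bp. All 107 peaks of exactly 146 bp, at that cutoff, were members.

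**Figure D1:**
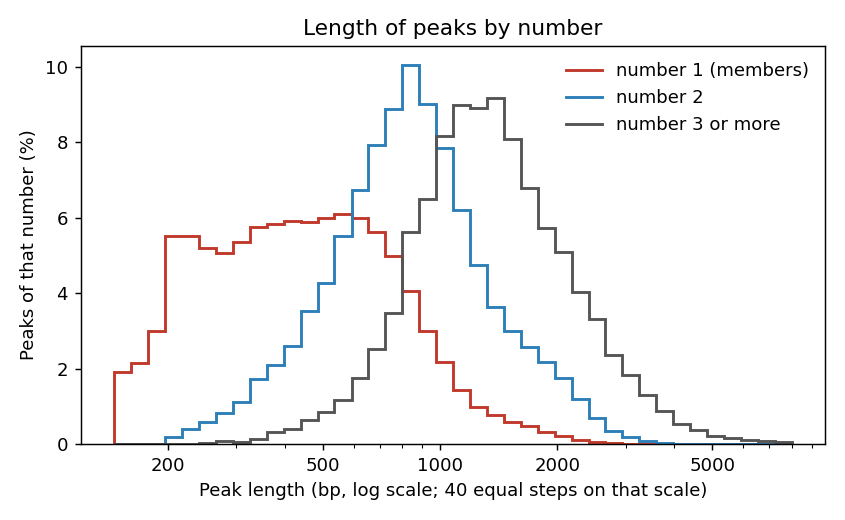
Share of peaks of each number (vertical axis, percent) by peak length (horizontal axis, bp on a log scale) for members, peaks of number 2 and peaks of 3 or more on chromosomes 1 to 20, drawn up to 8000 bp. The distribution of members is broad with a median of 430 bp, and the others have higher medians of 829 and 1325 bp.

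The length limit removed 2 peaks. The longest members measured 3932 bp (chr7:133123413-133127344 in the Rn6 assembly, as all positions here), 3604 bp (chr11:68373547-68377150) and 3430 bp (chr6:36430287-36433716). The peaks of number 1 beyond the limit measured 4900 bp (chr7:133128646-133133545) and 7515 bp (chr7:136036087-136043601). The longest member and the 4900-bp peak were direct neighbors with a gap of 1301 bp. These 2 peaks and the longest member thus lay within 2.92 Mb of chromosome 7. Genes at the positions given here were not analyzed.

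Members lay farther from peaks of 3 or more than peaks of number 2 did. The median gap from a member to the nearest peak of 3 or more, edge to edge, was 29617 bp (interval 29279 to 29947 bp), with quartiles of 11807 and 74285 bp. From peaks of number 2 the median was 24547 bp, and from a peak of 3 or more to another it was 16498 bp. The median of members was the higher in 20 of 20 chromosomes against number 2. A peak of 3 or more lay within 10 kb of 21.3% of members (interval 21.1 to 21.6%), 24.2% of peaks of number 2 and 34.3% of peaks of 3 or more. Within 100 kb these shares were 81.4, 86.2 and 93.7%.

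Inside windows of 1 Mb the same order was found less regularly than over whole chromosomes. Within 1 Mb windows holding at least 5 members and 5 peaks of number 2, a comparison chosen after the values were seen, the median distance of members to a peak of 3 or more exceeded that of number 2 in 1381 of 2530 windows (54.6%). The median ratio of both distances over those windows was 1.05, while the ratio of the medians of all peaks at once was 1.21. These ratios are unlike measures, and how much of the difference lay between regions was not computed.

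The mix of members and peaks of number 2 varied with distance. Counting only these peaks, members were 71.8% of the 209 members and 82 peaks of number 2 within 1 kb of a peak of 3 or more. Their share was lowest at 56.3% between 2 and 5 kb, and it rose to 61.9% between 50 and 100 kb and 70.8% beyond 500 kb. The median length of members was 376 bp within 1 kb, 360 bp from 1 to 2 kb and 446 bp between 50 and 100 kb. The class within 1 kb lies inside the gap across which the authors had merged peaks, and just outside it, from 1 to 2 kb, the share was 59.0%.

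The members farthest from a peak of 3 or more shared a stretch of chromosome 15. The largest distance was 1700755 bp (chr15:65428806-65429163), followed by 1688065 bp (chr15:65441188-65441853), 1668165 bp (chr15:64911312-64911745), 1666540 bp (chr15:64909687-64910450) and 1657237 bp (chr15:64900384-64901396). These 5 members were not isolated, with gaps of 223 to 11570 bp to their nearest peak of any number.

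**Figure D2:**
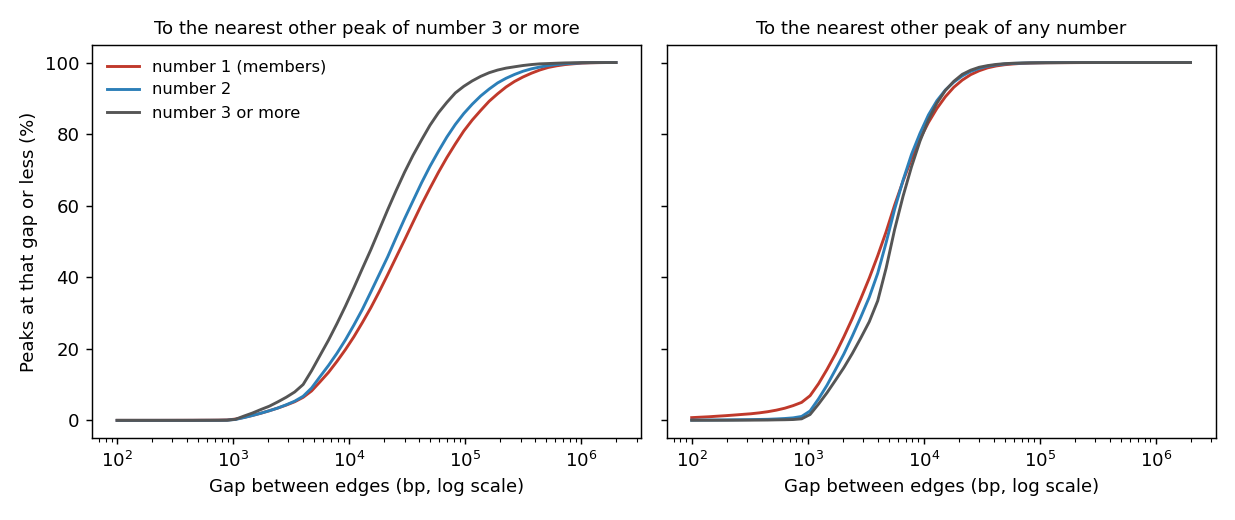
Cumulative share of peaks (vertical axes, percent) whose gap to the nearest other peak of 3 or more (left) or to the nearest other peak of any number (right) is at most the value on the horizontal axis (bp, log scale), for members and peaks of number 2 and of 3 or more. On the left the medians are 29617, 24547 and 16498 bp. On the right the curve of members lies highest at short gaps and lowest at long ones.

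Gaps to the nearest peak of any number were more unequal among members than among other peaks. The median was 4460 bp for members (interval 4423 to 4496 bp), 4768 bp for number 2 and 5302 bp for 3 or more, and members had the lowest of these medians in 20 of 20 chromosomes. At the far end, 3.51% of members (3188, interval 3.40 to 3.64%) had no other peak within 25 kb, against 2.57% of number 2 and 2.24% of 3 or more. Among peaks of 300 bp or longer these shares were 5.34% for members and 3.97% for number 2. Members thus more often had no other peak within 25 kb, and also more often had one within 1 kb. The order depended on the limit. No other peak lay within 10 kb of 19.3% of members, 17.5% of number 2 and 19.1% of 3 or more. With a limit of 5 kb the shares were 44.9, 47.2 and 53.8%, lowest for members. The near end is tied to the number by construction, because the authors merged peaks of a culture system across 1000 bp. Of members and peaks of number 2 together, members were 83.1% at gaps up to 1 kb and 60.7% at 1 to 2 kb. The excess of isolated members over number 2 held in 18 of 20 chromosomes, with chromosomes 12 and 18 as the exceptions. The lower median depended on short peaks and close pairs. It was 308 bp below that of number 2 in the full list, but 83 bp below among peaks of 300 bp or longer, where 6 chromosomes had the opposite order, and 77 bp below after peaks 1000 bp or less apart were joined, where 4 did.

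Of the 5553 peaks isolated by more than 25 kb, 57.4% were members (interval 56.1 to 58.7%), and of the 913 isolated by more than 50 kb, 60.6% were. Members were 48.4% of all peaks, 45.9% of those isolated by more than 5 kb and 50.1% of those isolated by more than 10 kb. Of the 146 isolated by more than 100 kb, 58.2% were members (interval 50.1 to 65.9%). Isolation by more than 100 kb applied to 0.094% of members, 0.066% of peaks of number 2 and 0.058% of peaks of 3 or more, and the intervals of members and number 2 overlapped. The most isolated member, of 214 bp (chr7:8400096-8400309), lay 633334 bp from its nearest peak. The following ones lay 539185 bp (chr6:141884264-141884511), 419400 bp (chr6:141344361-141345078), 407833 bp (chr1:67798077-67799371) and 390418 bp (chr6:142514425-142514691) from theirs. The 3 members on chromosome 6 were consecutive peaks, and the peaks before and after them were also members.

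The near end of the gaps is where the authors had merged peaks, across up to 1000 bp inside 1 culture system. If the fourth column counts merged peaks, members 1000 bp or less apart cannot come from the same culture system. There were 2210 such pairs of neighboring members, and they held 4376 members, or 4.82% of all. Among peaks of 300 bp or longer there were 1046 such pairs. Pairs of members were 63.8% of all 3463 neighboring pairs 1000 bp or less apart (interval 62.2 to 65.4%) but 25.1% of all neighboring pairs. Pairs without a member were 5.66% of the close pairs and 28.3% of all. If the fourth column counts merged peaks, any 2 peaks of number 2 or more share at least 1 of the 3 culture systems. Peaks of 1 culture system that close had already been merged, so these shares are tied to the merging by construction. From just above to just below 1000 bp, the number of pairs per 250 bp fell from 1093 to 553 for pairs of members, from 1994 to 597 where 1 peak was a member and from 1049 to 170 where neither was. The smallest gap was 1 bp, found in 7 pairs of members. In 3 cases 3 members in a row lay within 1000 bp from the end of the first to the start of the last, and in 0 cases did 4.

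Beyond 1000 bp the gaps of members took another course than those of other peaks. By ranges of 1 kb, pairs of members became fewer with distance, from 3809 with gaps of over 2 to 3 kb to 3346 at 3 to 4 kb and 2988 at 4 to 5 kb. Pairs without a member numbered 3208, 3184 and 4880 in the same ranges, with a maximum of 1364 per 250 bp between 4750 and 5000 bp. Per 250 bp, pairs of members also rose a little, from 705 between 4250 and 4500 bp to 778 between 4500 and 4750 bp. Pairs of members were therefore 28.4% of all pairs at 2 to 3 kb (interval 27.6 to 29.2%) and 20.6% at 4 to 5 kb (interval 19.9 to 21.3%). This comparison was chosen after the gaps had been seen.

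**Figure D3:**
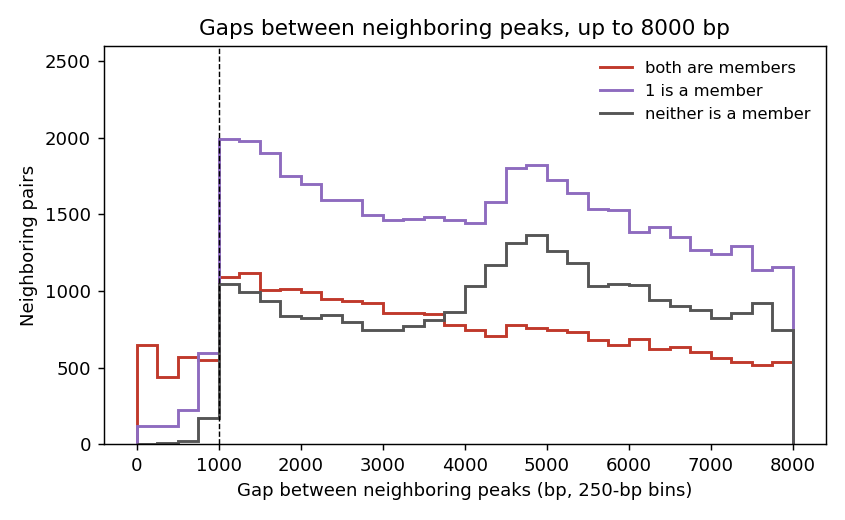
Number of neighboring pairs of peaks (vertical axis) in 250-bp bins of the gap between them (horizontal axis, bp) for pairs in which both, 1 or neither of the peaks was a member. The dashed line marks 1000 bp, below which 2210 of 3463 pairs consist of members. The rise near 5000 bp is seen in pairs without a member and in pairs with 1, and pairs of members show little of it.

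Members followed each other somewhat more often than they followed other peaks. The next peak along the chromosome was a member after 51.8% of members (interval 51.5 to 52.2%), 48.1% of peaks of number 2 and 40.4% of peaks of 3 or more. The share after members was higher than after all other peaks combined (45.2%) in 20 of 20 chromosomes. Both neighbors were members for 28.1% of members, 24.1% of peaks of number 2 and 17.6% of peaks of 3 or more. At least 1 neighbor was a peak of 3 or more for 28.5% of members, 32.3% of peaks of number 2 and 46.1% of peaks of 3 or more.

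Consecutive members formed 43698 runs with a mean of 2.08 members. Runs of 1 held 24.4% of members, and the 3372 runs of 5 or more held 23.9% (interval 23.6 to 24.1%) and had a median span of 62.4 kb. Members made up 48.4% of all peaks, and at that share runs form in any order of peaks. Run lengths in a random order were not computed, so these counts do not measure clustering. Among peaks of 300 bp or longer, where members were 40.2% of peaks, runs of 5 or more held 15.2% of members. There were 254 runs of 10 or more, with 3.31% of members, and 6 of 20 or more. The run with the most members had 28 over 1185 kb (chr15:65923675-67109101), while the largest span of a run of 5 or more was 2100 kb. The run of 28 began 482 kb from the nearest of the 5 members farthest from a peak of 3 or more. The next runs had 23 members over 480 kb (chr17:58785826-59265355), 21 over 753 kb (chr18:9866427-10618932), 21 over 494 kb (chr5:85201293-85695583) and 20 over 580 kb (chr2:108428828-109009049), the longer in span of the runs of 20. These runs were not all dense. That of 28 had 23.6 members per Mb, below the density of members on every one of the 20 chromosomes, and the run of 23 had 48.0.

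In 1 Mb windows the share of members varied widely. Of 2629 windows with a peak, 2539 held at least 20 and were used, which left out 649 members. The median share was 50% (interval 49.4 to 50.6%), with quartiles of 41.7 and 58.4% and 10th and 90th percentiles of 35.3 and 66.7%. Members were the majority in 1240 windows. They made up 75% or more of the peaks in 68 windows and 25% or less in 45. Windows next to each other had related shares, with a Spearman rho of 0.48 over 2465 pairs, which share libraries and chromosomes.

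The share of members fell with the number of peaks of 3 or more, which enter its denominator (Spearman rho -0.83 over 2539 windows). Members numbered 35.5 ± 11.3 per window (mean ± SD over 2539 windows), and their SD was 0.32 of the mean, against 0.44 for number 2 and 0.79 for 3 or more. Across windows, the number of members had a Spearman rho of 0.61 with the number of peaks of number 2 and 0.20 with that of 3 or more, while peaks of number 2 and of 3 or more had a rho of 0.55 with each other. The share of members had a rho of -0.49 with the number of all peaks, which is its own denominator. Windows with 0 to 6 peaks of 3 or more had a median of 30 members, those with 7 to 12 had 37, those with 13 to 20 had 39 and those with 21 to 92 had 35, so that the number rose and then fell. The median share was 63.3, 53.3, 46.2 and 38.2% in these classes. Members were thus spread far more evenly than peaks of 3 or more, and their share was low where those, which enter its denominator, were many.

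**Figure D4:**
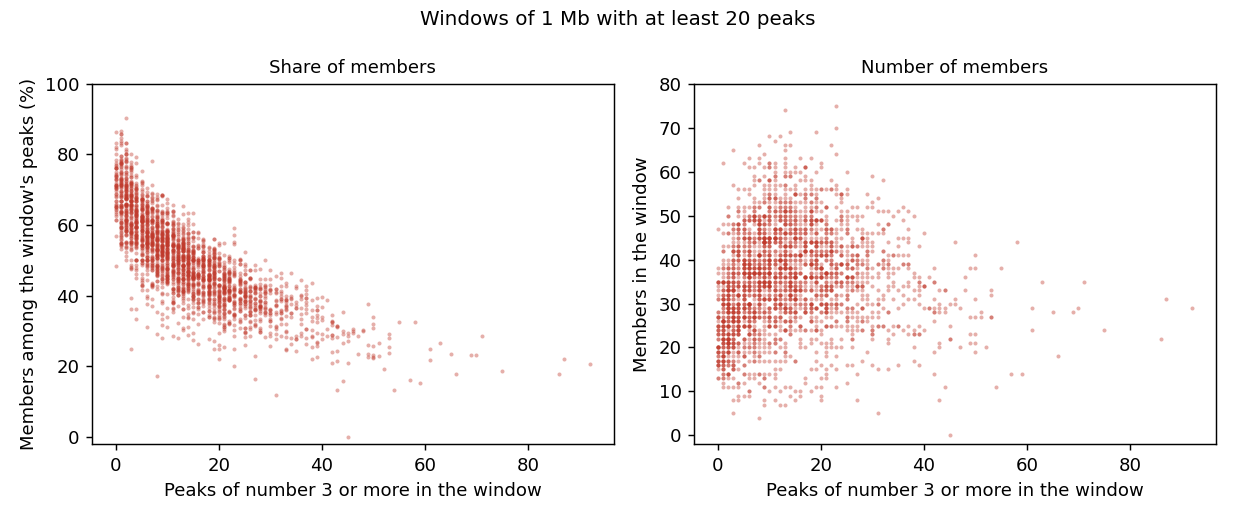
Share of members (left, percent) and number of members (right) in each of 2539 windows of 1 Mb with at least 20 peaks, against the number of peaks of 3 or more in the window (horizontal axes). Each point is a window. The share falls along the axis, while the number of members has a rho of 0.20 with it.

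The highest share was found at chr9:56000001-57000000, where 28 of 31 peaks were members (90.3%, interval 75.1 to 96.7%). It was followed by chr18:10000001-11000000 with 26 of 30, chr13:3000001-4000000 with 25 of 29, chr5:89000001-90000000 with 30 of 35 and chr4:46000001-47000000 with 24 of 28. These windows had few peaks, and their intervals overlapped widely. The window on chromosome 18 also held part of the run of 21 members.

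The lowest share was found at chr1:180000001-181000000, where 0 of 48 peaks were members (upper limit of the interval 7.41%) and 45 had a number of 3 or more. Peaks there had a median length of 1687 bp, against 689 bp for all peaks. The next window, chr1:181000001-182000000, also had a low share, with 8 of 60. The others were chr13:33000001-34000000 with 5 of 42, chr1:101000001-102000000 with 11 of 82 and chr1:55000001-56000000 with 14 of 92. The low shares came with 31 to 59 peaks of 3 or more, where the median window had 12.

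Chromosomes, which hold more peaks, differed less than windows. The share of members was highest on chromosome 11 (51.5%, interval 50.3 to 52.8%), with chromosomes 4 and 2 at 51.4 and 51.3%, and lowest on chromosome 12 (39.4%, interval 37.9 to 40.9%), with chromosome 10 at 42.9%. The median chromosome had 49.1%, and the SD over 20 chromosomes was 3.19 percentage points, against 12.3 over windows. Members per Mb, up to the last peak, ranged from 30.0 on chromosome 12 to 38.9 on chromosome 17, a ratio of 1.30, whereas peaks of 3 or more ranged from 10.3 per Mb on chromosome 13 to 21.2 on chromosome 12, a ratio of 2.05. Chromosome 12 thus had the fewest members and the most peaks of 3 or more per Mb. Its members also had the shortest median length (403 bp) and the shortest median distance to a peak of 3 or more (17297 bp). The members of chromosome 11 had the largest median length (456 bp) and the largest median gap to another peak (4737 bp).

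**Figure D5:**
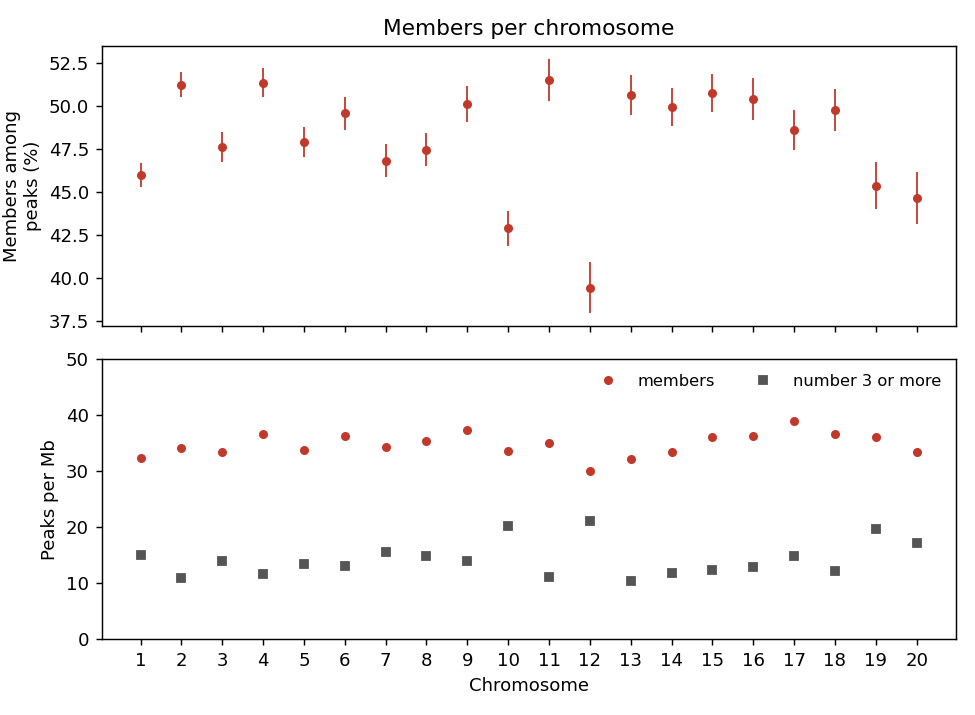
Share of members among the peaks of each chromosome with Wilson 95% intervals (top, percent, axis not starting at 0), and members and peaks of 3 or more per Mb (bottom), for chromosomes 1 to 20. Chromosome 12 has the lowest share, 39.4%, with the fewest members and the most peaks of 3 or more per Mb.

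The starts of the chromosomes had no common share of members. In the first 2 Mb, 1147 of 2626 peaks were members (43.7%), but the share there was below that of the rest of the chromosome in 10 chromosomes and above it in 10. It ranged from 20.6% of 189 peaks on chromosome 7 to 63.4% of 112 on chromosome 11. In the 2 Mb before the last peak, 48.2% were members over all chromosomes at once (interval 46.4 to 50.04%), against 48.5% away from both ends.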

How the data were processed

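The authors trimmed reads with Trim Galore 0.4.5, aligned them to Rn6 with Bowtie2 2.3.4.2 and SAMtools 1.9, pooled the libraries of each culture system, called peaks with MACS2, merged peaks of a culture system within 1000 bp of each other, removed those under 146 bp and merged the 3 sets with bedtools. The deposited list gives start, end and, in the fourth column, a whole number from the authors, handled as a score of undescribed meaning and read as the number of merged peaks. Members and lists were chosen with earlier results of these data known.

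Starts were counted from 1, and gaps run from edge to edge. Windows of 1 Mb, by peak center, were used with at least 20 peaks. Shares have Wilson 95% intervals and medians intervals from order statistics. Named regions were the 5 highest and lowest windows, the 5 runs with the most members, the 5 members farthest from any peak and from a peak of 3 or more, and peaks next to the 4000-bp limit. No test was run, and depth is unknown. The steps were tested on simulated peaks and used Python 3.11.15, numpy 2.4.6, pandas 2.3.3, scipy 1.17.1 and matplotlib 3.10.9.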

Additional observations from a re-analysis of the deposited data

Results flagged for a closer look

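Peaks with the number 1 were also listed outside chromosomes 1 to 20, on sequences left out of the main comparisons. Chromosomes X and Y entered only an alternative given below. Shorter than 4000 bp were 2347 of 4404 peaks on chromosome X (53.3%, interval 51.8 to 54.8%), 22 of 58 on chromosome Y (37.9%, interval 26.6 to 50.8%) and 460 of 973 on unplaced scaffolds (47.3%, interval 44.2 to 50.4%). The share on chromosome X was above that of each of chromosomes 1 to 20, though its interval overlapped those of chromosomes 2, 4, 11 and 15, and the median length of its peaks of number 1 was 367 bp.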

How the results depend on the processing

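No paired analysis was possible because the list was pooled over replicates and no result came from a test. With peaks of 300 bp or longer only, members were 40.2% of peaks, 44.6% were followed by another member, 15.2% lay in runs of 5 or more, 5.34% were isolated by 25 kb and 20.5% lay within 10 kb of a peak of 3 or more. Their median length was then 550 bp, distance to 3 or more 30438 bp, gap 5307 bp and window share 41.7%, with 1046 close pairs. After joining peaks 1000 bp or less apart, these were 46.4% of peaks, 49.4% followed, 20.9% in runs, 3.74% isolated, 21.9% within 10 kb, 28575 bp to 3 or more, a gap of 4768 bp and a window share of 47.9%. With X and Y, the range over chromosomes was 15.4 points in place of 12.1, the distance 30209 bp, the share within 10 kb 21.1%, the gap 4521 bp and isolation 3.96%.

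Means in place of medians were 508 bp for length, 69749 bp for distance and 6986 bp for gap. Between centers the distance was 30646 bp, with 19.1% within 10 kb. Against peaks of 2 or more it was 8925 bp, with 54.2% within 10 kb. Isolation by 10 and 50 kb gave 19.3 and 0.610%, windows of 500 kb and of at least 40 peaks gave median shares of 48.7 and 48.9%, runs of 10 held 3.31%, and 1089 pairs were 500 bp or less apart. Of 65 values under alternatives, 29 lay within the limits set for the value reported and 36 outside them. The limits were its interval or its spread over chromosomes. For close pairs they were a fixed range of 1473 to 3315 pairs. Some alternatives changed what was counted, such as isolation by 50 kb or runs of 10, so their values were bound to differ.

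Leaving out each chromosome in turn gave 48.1 to 48.7% of peaks, lengths of 429 to 430 bp, distances of 29053 to 30067 bp, 21.1 to 21.7% within 10 kb, 51.6 to 52.1% followed, 23.5 to 24.2% in runs, gaps of 4448 to 4469 bp, 3.42 to 3.57% isolated, window shares of 50%, rho of -0.53 to -0.48 and 1970 to 2178 close pairs.

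Differences between members and number 2 in gap, distance to 3 or more and isolation, and the difference in how often the next peak was a member after members and after all other peaks, were run under 4 alternatives chosen after seeing the data. The difference in median gap from number 2 went from -308 bp to -83 bp with peaks of 300 bp or longer and to -77 bp with close peaks joined. The other differences stayed within 1 SD over chromosomes. The interval over peaks is narrow at this number of peaks, so even small shifts leave it. Other shifts were large, such as the share of members in runs of 5 or more, from 23.9 to 15.2% with peaks of 300 bp or longer. The share of members among all peaks fell from 48.4 to 40.2% in that setting, which by itself shortens runs. Unknown depth limits what an absent call means, and the number 1 is read without a description from the authors.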
